A study of Caenorhabditis elegans with 9 samples.

Results

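Autophagy encloses cytoplasm in a double membrane and delivers it to lysosomes, where the contents are broken down. In *C. elegans* embryos the process is known for clearing maternally supplied PGL granules from somatic cells, where SEPA-1 and EPG-2 link the granule proteins to the autophagy machinery and are degraded with them. The 10 genes described here were chosen by name from that pathway, among 46748 genes in the count table: the cargo proteins sepa-1, epg-2 and sqst-1, the autophagosome genes lgg-1 and lgg-2, the membrane formation genes bec-1, atg-18 and epg-3, the fusion gene epg-5, and the transcription factor gene hlh-30. All 10 had counts and passed the filter on low counts, which kept 14622 genes.

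RNA was measured in whole wild-type (N2) hermaphrodites labelled as 5 days of age, with 3 libraries in each of 3 RNAi groups. The first group was treated against H28O16.1, the sequence name of atp-1, which encodes a subunit of mitochondrial ATP synthase. The second was treated against B0395.3, which encodes a relative of carnitine acyltransferases. The third received L4440, the empty vector, and serves as control. The start of RNAi was not stated, nor was it stated that replicate libraries had separate cultures as their source. The p-values therefore rest on library-to-library spread, part of which may be technical. Library totals ran from 31236614 to 40990685 counts. The atp-1 mRNA stood at 3.64% of its L4440 level in H28O16.1 libraries, and the B0395.3 mRNA stood at 41.4% of its L4440 level in B0395.3 libraries. Replicate 3 of H28O16.1 lay farthest from its group, with root mean square log2 differences of 0.383 and 0.349 from replicates 1 and 2, which differed by 0.312.

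Levels are given in CPM, counts scaled to the size and composition of each library, and between genes in CPM per kb of annotated exon. In these whole worms fewer cells of a type and less RNA per cell cannot be told apart. A gene is called, and is said to rise or fall, where the quasi-likelihood test of edgeR gave an adjusted p under 0.05 over all 14622 genes. Overlap between libraries is given as description only. The share of all genes without overlap was not counted.

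The cargo adaptors sepa-1 and epg-2 fell steeply in H28O16.1 worms and rose in B0395.3 worms, while the other 8 genes moved by less than 0.5 log2 units in every comparison. In H28O16.1 against L4440, 2 of the 10 genes rose and 6 fell, where 26.3% of all genes rose and 31.2% fell, so that 57.6% were called in either direction. In B0395.3 against L4440, 6 rose and 1 fell, where 12.6% of all genes rose and 14.6% fell (27.2% in either direction). The median log2 fold change of the 10 genes was -0.21 in H28O16.1 and 0.19 in B0395.3, beside medians of -0.0042 and 0.0079 over all genes tested.

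**Figure D1:**
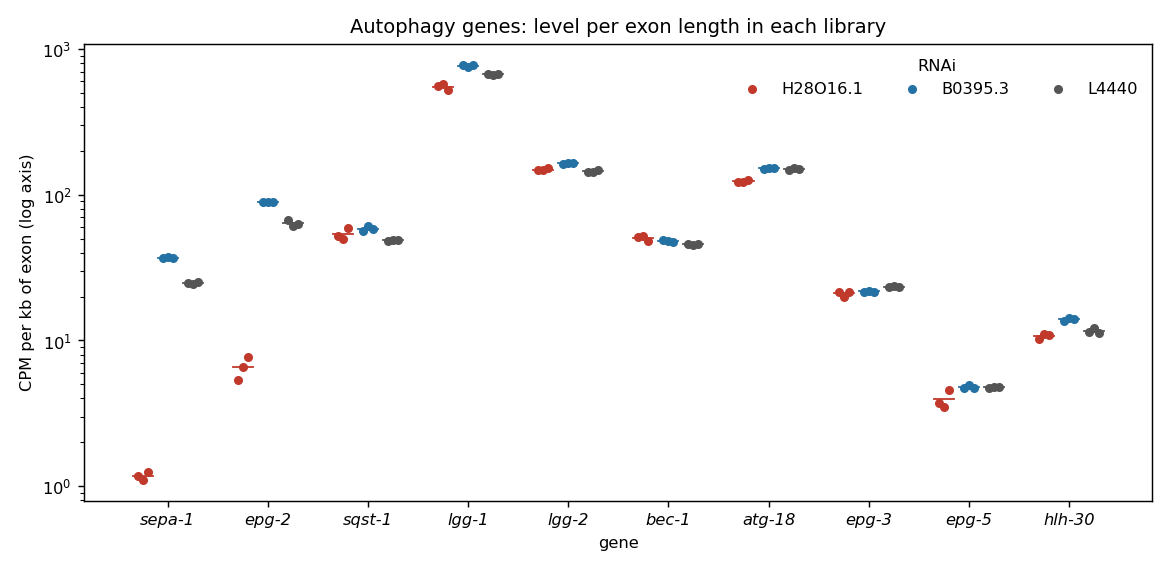
Level of each gene in CPM per kb of exon (log axis) in every library, with H28O16.1 (red), B0395.3 (blue) and L4440 (grey) from left to right; points are libraries and lines are group means (n = 3). sepa-1 and epg-2 stand far below the other groups in H28O16.1, at 1.17 and 6.54 CPM per kb, against 24.9 and 63.6 CPM per kb in L4440.

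The genes spanned more than 2 orders of magnitude in L4440 worms. Per exon length lgg-1 was highest, at 674 ± 6.12 CPM per kb (SD, n = 3, as for all means below), above 98.8% of the genes with a known length. It was followed by atg-18 (151), lgg-2 (145), epg-2 (63.6), sqst-1 (48.8), bec-1 (45.8), sepa-1 (24.9), epg-3 (23.5), hlh-30 (11.6) and epg-5 (4.77 CPM per kb). No neighbours in this order overlapped between their 3 libraries, although atg-18 and lgg-2 came close. The order differed in H28O16.1 worms, where sepa-1 was lowest, at 1.17 ± 0.0714 CPM per kb, and epg-2, at 6.54 ± 1.14 CPM per kb, lay below hlh-30. In that group sqst-1 (53.7 ± 5.22 CPM per kb) and bec-1 (50.6 ± 1.96 CPM per kb) overlapped. Lengths are of all annotated exons joined, so genes with several transcripts, such as hlh-30 with 13, may be set too low.

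The gene sepa-1 (WBGene00010808) lies on chromosome I of WBcel235 from 13298204 to 13300716 on the minus strand, with 1 annotated transcript of 3 exons. Its product binds PGL granule proteins and LGG-1. It had 2.61, 2.45 and 2.76 CPM in the H28O16.1 libraries, from 78 to 113 counts each, 81.5, 83.6 and 81.7 CPM in B0395.3 libraries, and 55.3, 54.6 and 56.0 CPM in L4440 libraries. No library of any group overlapped with another group. The H28O16.1 level was 4.72% of that in L4440 (log2 fold change -4.40, SE 0.053, edgeR adjusted p = 7.15e-15), the 62nd lowest fold change of 14622. In B0395.3 the level was 149% of that in L4440 (log2 fold change 0.57, SE 0.036, edgeR adjusted p = 1.24e-07). Set directly against B0395.3, H28O16.1 was lower by a log2 fold change of -4.97 (95% interval -5.09 to -4.86).

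The gene epg-2 (WBGene00021468) lies on the same chromosome from 2300086 to 2302813 on the plus strand and encodes a coiled-coil scaffold that joins SEPA-1 and its cargo to the membrane. It had 12.3, 14.97 and 17.5 CPM in H28O16.1 libraries, 203, 205 and 203 CPM in B0395.3 libraries, and 153, 139 and 143 CPM in L4440 libraries. These groups were likewise apart in every library, and replicate 3 was the highest of the H28O16.1 libraries. The mean in H28O16.1 was 10.3% of the L4440 mean (log2 fold change -3.28, SE 0.080, edgeR adjusted p = 5.31e-12), and the mean in B0395.3 was 141% of it (log2 fold change 0.49, SE 0.064, edgeR adjusted p = 7.99e-05). The libraries do not mark strand, and 3.42% of the exon bases of epg-2 are also exonic in tpxl-1 on the opposite strand. That gene fell by 0.18 log2 units in H28O16.1.

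The third cargo gene, sqst-1, the worm relative of p62, did not share this pattern. It had 118, 112 and 134 CPM in H28O16.1 libraries, 128, 137 and 132 CPM in B0395.3 libraries, and 109, 111 and 110 CPM in L4440 libraries. Each library of both RNAi groups was above each L4440 library, while the RNAi groups overlapped with each other. It rose in B0395.3 (log2 fold change 0.27, SE 0.053, edgeR adjusted p = 0.00232) and in H28O16.1 (0.14, SE 0.054, edgeR adjusted p = 0.0386). The H28O16.1 rise rested on replicate 3: without it the log2 fold change was 0.061 with an adjusted p = 0.129, and over all alternatives the adjusted p ran from 0.000257 to 0.129. It was also not called without any one of the L4440 libraries, after upper-quartile scaling, or in a fit of the 2 groups alone. The direct difference between H28O16.1 and B0395.3 was -0.12 (95% interval -0.24 to -0.0095, edgeR adjusted p = 0.0566), and without H28O16.1 replicate 3 it was -0.20 and was called.

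**Figure D2:**
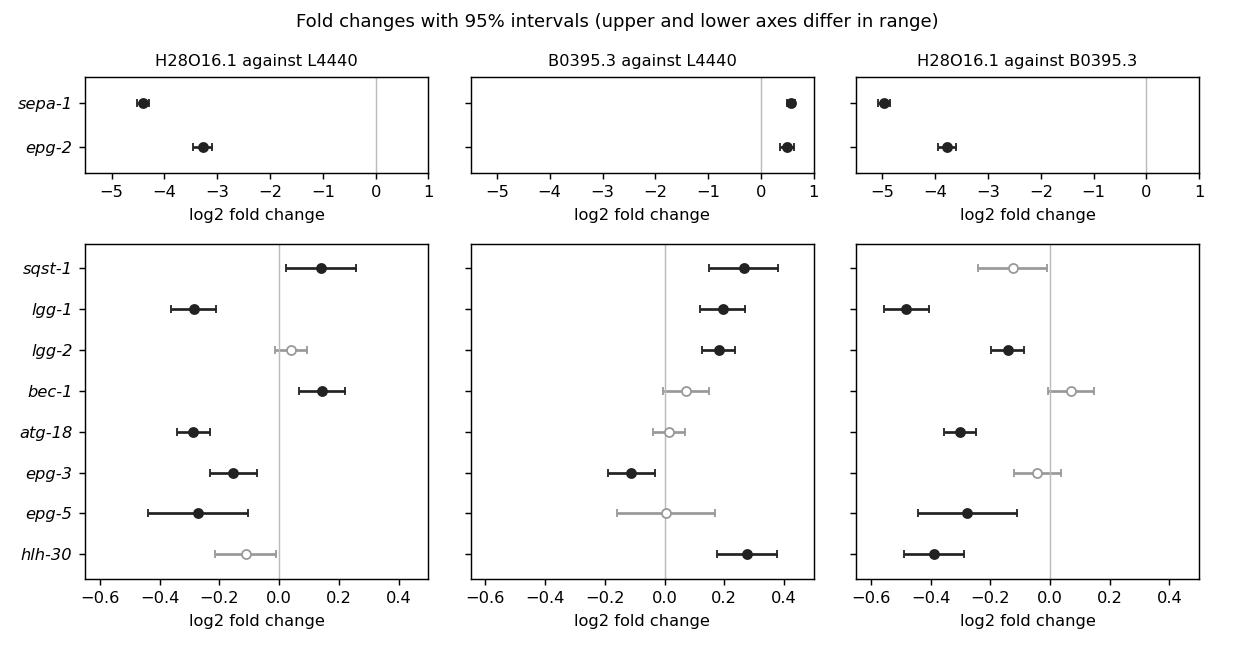
Log2 fold changes of the 10 genes (rows) with 95% intervals in each comparison (columns); filled points passed the test, open grey points did not. The upper axes reach past -5 for sepa-1 and epg-2, and the lower axes cover the other 8 genes, none of which reached 0.5 in size.

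The autophagosome genes lgg-1 and lgg-2 gave different calls in H28O16.1. The gene lgg-1, whose product coats the forming autophagosome, had 393, 410 and 370 CPM in H28O16.1 libraries, 553, 532 and 551 CPM in B0395.3 libraries, and 481, 472 and 478 CPM in L4440 libraries. It was lowest in all H28O16.1 libraries and highest in all B0395.3 libraries. The log2 fold change against L4440 was -0.29 in H28O16.1 (SE 0.035, edgeR adjusted p = 1.18e-05) and 0.19 in B0395.3 (SE 0.035, edgeR adjusted p = 0.000985). The gene lgg-2, whose product acts after LGG-1 in the removal of paternal mitochondria, had 153, 154 and 158 CPM in H28O16.1 libraries, 169, 172 and 172 CPM in B0395.3 libraries, and 150, 150 and 153 CPM in L4440 libraries. H28O16.1 and L4440 overlapped for lgg-2, and their difference was not called (log2 fold change 0.039, 95% interval -0.016 to 0.094). In B0395.3 lgg-2 rose by 0.18 log2 units (SE 0.025, edgeR adjusted p = 0.000141), close in size to the rise of lgg-1.

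The membrane formation genes bec-1, atg-18 and epg-3 and the fusion gene epg-5 were all called in H28O16.1, as were 57.6% of all genes. Their changes there were below 0.3 log2 units in size. The PI3P-binding WIPI relative atg-18 fell to 220, 221 and 227 CPM in H28O16.1 libraries, while B0395.3 libraries had 272, 274 and 276 CPM and L4440 libraries had 267, 277 and 272 CPM. Its log2 fold change was -0.29 in H28O16.1 (SE 0.025, edgeR adjusted p = 4.98e-07) and 0.014 in B0395.3 (95% interval -0.040 to 0.068, not called). The B0395.3 and L4440 libraries of atg-18 overlapped. Beclin 1, encoded by bec-1, belongs to the lipid kinase complex that marks the forming membrane. The bec-1 mRNA had 68.7, 69.4 and 64.6 CPM in H28O16.1 libraries, 65.3, 64.1 and 63.4 CPM in B0395.3 libraries, and 61.7, 60.5 and 61.2 CPM in L4440 libraries. It rose in H28O16.1 (log2 fold change 0.14, SE 0.036, edgeR adjusted p = 0.00417) and was not called in B0395.3 (0.072, 95% interval -0.0063 to 0.15). No library of either RNAi group overlapped with L4440.

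The VMP1 relative epg-3, which acts at the endoplasmic reticulum in autophagosome formation, had 65.1, 60.3 and 65.1 CPM in H28O16.1 libraries, 64.8, 66.4 and 65.3 CPM in B0395.3 libraries, and 70.6, 71.2 and 70.4 CPM in L4440 libraries. It was below L4440 in every library of both RNAi groups. The fall was -0.15 log2 units in H28O16.1 (SE 0.036, edgeR adjusted p = 0.00260) and -0.11 in B0395.3 (SE 0.036, edgeR adjusted p = 0.0366). The B0395.3 call was lost when any 1 of the 6 libraries compared was left out and under 4 of the other alternatives, where the adjusted p over all alternatives ran from 0.00706 to 0.117. For epg-5, whose product tethers autophagosomes to late endosomes and lysosomes, the libraries had 27.3, 25.5 and 33.3 CPM in H28O16.1, 34.3, 36.0 and 34.4 CPM in B0395.3, and 34.6, 34.7 and 35.1 CPM in L4440. Replicate 3 of H28O16.1 stood close to the other groups. The gene epg-5 fell in H28O16.1 (log2 fold change -0.27, SE 0.077, edgeR adjusted p = 0.00834), and in B0395.3 the fold change was 0.0044 (95% interval -0.16 to 0.17, not called).

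The transcription factor gene hlh-30, whose product is the relative of TFEB and drives autophagy and lysosome genes, had 33.6, 36.0 and 35.6 CPM in H28O16.1 libraries, 44.6, 46.9 and 46.0 CPM in B0395.3 libraries, and 37.3, 39.8 and 36.6 CPM in L4440 libraries. All B0395.3 libraries were above all others. The rise in B0395.3 was 0.28 log2 units (SE 0.046, edgeR adjusted p = 0.000626). In H28O16.1 the difference was not called (-0.11, 95% interval -0.21 to -0.010, edgeR adjusted p = 0.0570). No H28O16.1 library overlapped with L4440. Without H28O16.1 replicate 3 the difference was called at -0.12, and over all alternatives the adjusted p ran from 0.0418 to 0.250.

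The RNAi groups were also set directly against each other, since both were compared with the same L4440 libraries. In H28O16.1 against B0395.3, 7 of the 10 genes were lower and 0 were higher, where 30.5% of all genes were higher and 32.1% were lower (62.6% called in either direction). At an unadjusted p under 0.05, and in the limma-voom and DESeq2 tests, likewise 0 were higher. Without H28O16.1 replicate 3, bec-1 was called higher at 0.10 and sqst-1 lower. After sepa-1 and epg-2 (-3.77, SE 0.080), the differences were -0.48 for lgg-1, -0.39 for hlh-30, -0.30 for atg-18, -0.28 for epg-5 and -0.14 for lgg-2. Those of sqst-1, bec-1 (0.071, 95% interval -0.0069 to 0.15) and epg-3 (-0.043, 95% interval -0.12 to 0.036) were not called.

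Many markers of early embryos, which day-5 hermaphrodites can carry in the uterus, fell in H28O16.1, as sepa-1 and epg-2 did. Their list was chosen with earlier results of these data known, so its direction is not independent of them. The list held 24 genes of the table taken as markers of embryonic transcription, with pha-4 also among the nutrient signalling genes below. Their summed level was 44.5 to 47.1 CPM in H28O16.1, 275 to 287 CPM in B0395.3 and 231 to 252 CPM in L4440. Most of the L4440 sum was vet-2 and vet-1, at 71.05 and 55.24 CPM, followed by vet-6 and sdz-28. The sum therefore says little of the markers of low level. At 0 counts in all libraries of a group were med-1 and hlh-27 in H28O16.1, med-2 in B0395.3, and med-2 and hlh-27 in L4440. Of 19 tested, 11 fell and 1 rose in H28O16.1 (median -0.86), and 5 rose and 0 fell in B0395.3 (median 0.15). The B0395.3 rises numbered 3 without B0395.3 replicate 2, L4440 replicate 1 or L4440 replicate 2. The rise of tbx-38 in B0395.3 was lost without any one of the libraries compared. At an unadjusted p under 0.05, and by limma-voom and DESeq2, 0 fell there. The part of embryo number in the sepa-1 and epg-2 values was not tested.

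The embryo list did not move as 1 block. The T-box gene tbx-38 had 0.123 CPM in H28O16.1 and 9.99 CPM in L4440, and vet-1 (-3.60), sdz-28 (-4.44) and vet-6 (-4.43) fell steeply. Of the other transcription factor genes tested, tbx-37 (-4.92), ref-1 (-1.07), pes-1 (-0.86) and hnd-1 (-0.81) fell, hnd-1 no longer without L4440 replicate 1. Those not called were ceh-51 (-0.68), hlh-1 (-0.58), end-3 (-0.49), pha-4 (0.023), nob-1 (0.096) and elt-7 (0.13). The single gene of the list that rose in H28O16.1 was sdz-1 (1.705), at low levels of 0.43 CPM there and 0.13 CPM in L4440. In B0395.3, sdz-28 rose by 0.71 and sdz-31 by 0.64, while vet-6 stood at 0.0082 and was not called. The genes named in this paragraph were chosen after their values were seen.

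Markers of oocytes and of the germ line had smaller median changes than the embryo list. Those of sperm and epidermis had larger median falls in H28O16.1, at -1.92 and -1.71, mostly in genes of low level. Of 23 oocyte and eggshell genes, 4 rose and 15 fell in H28O16.1, with a median of -0.10 and a summed level of 21390 to 22370 CPM in H28O16.1, against 24170 to 25290 CPM in L4440. In B0395.3 the sum was 22540 to 23430 CPM, and 1 gene rose and 10 fell. The single rise in B0395.3, and the largest fall of these genes in H28O16.1, was the caveolin gene cav-1, at 0.88 in B0395.3 and -2.32 in H28O16.1, named after its values were seen. Of 13 germ line genes, 4 rose and 5 fell in H28O16.1 (median -0.00072), and 1 rose and 1 fell in B0395.3, where these counts changed under RLE and upper-quartile scaling, in DESeq2 and with any one library left out. The mRNAs of the granule proteins changed little, and protein was not measured. In H28O16.1, pgl-3 fell by 0.21 and pgl-1 by 0.10 log2 units, and in B0395.3 they were not called (-0.062 and 0.0091).

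**Figure D3:**
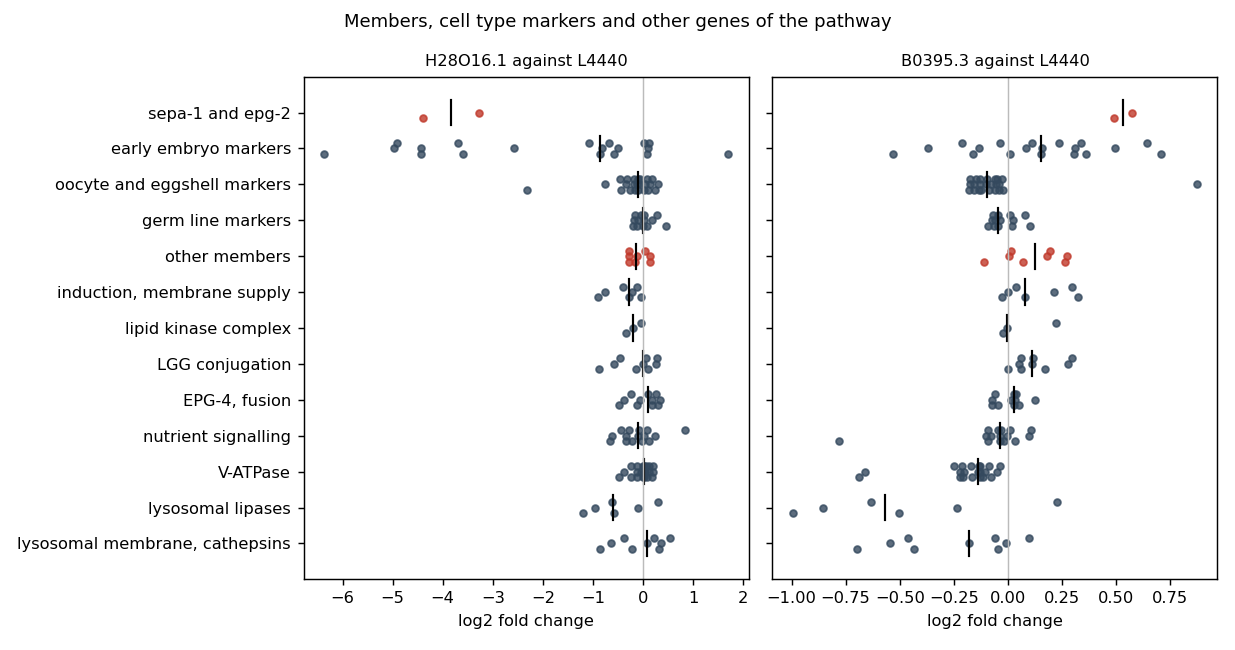
Log2 fold changes of the tested genes of the lists drawn, in H28O16.1 (left) and B0395.3 (right) against L4440. Points are genes, black bars are medians, the 10 genes described here are red, and the axes differ in range. The lists for PGL granules, mitophagy, sperm, intestine, body wall muscle, epidermis, pharynx and neurons are not drawn. Among the lists of autophagy and lysosome genes no gene fell as far in H28O16.1 as sepa-1 (-4.40) or epg-2 (-3.28), while 7 of the early embryo markers had a lower fold change than epg-2.

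The genes whose levels followed sepa-1 most closely were F34D6.1, sdz-28, fbxb-119, skr-10 and sdz-31. Likeness was measured as the root mean square difference of log2 CPM from sepa-1 over the 9 libraries, each gene centred on its L4440 mean, over the 11464 genes that averaged 1 CPM or more. The differences were 0.106, 0.116, 0.160, 0.166 and 0.167 log2 units, beside a median of 2.56 over the genes compared. Their log2 fold changes in H28O16.1 ran from -4.97 (sdz-31) to -4.39 (fbxb-119), and in B0395.3 from 0.47 (skr-10) to 0.71 (sdz-28). The fitted value of sdz-31 rests on 0.101 CPM in H28O16.1, only a few counts a library. All 5 were called in both comparisons. The genes were chosen for likeness in these same libraries, so their fold changes and calls follow largely from that choice. The fbxb and skr genes belong to families of close copies, so how reads were split among them is uncertain.

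The same measure gave fubl-3, yap-1, B0361.9, C04E6.7 and F08F3.4 as the genes most like sqst-1, at 0.044 to 0.059 log2 units, beside a median of 0.282. The changes of these genes were as small as those of sqst-1, between 0.079 and 0.20 in H28O16.1 and between 0.18 and 0.25 in B0395.3, and 3 of the 5 were called in B0395.3. Such values too follow largely from how the genes were chosen.

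**Figure D4:**
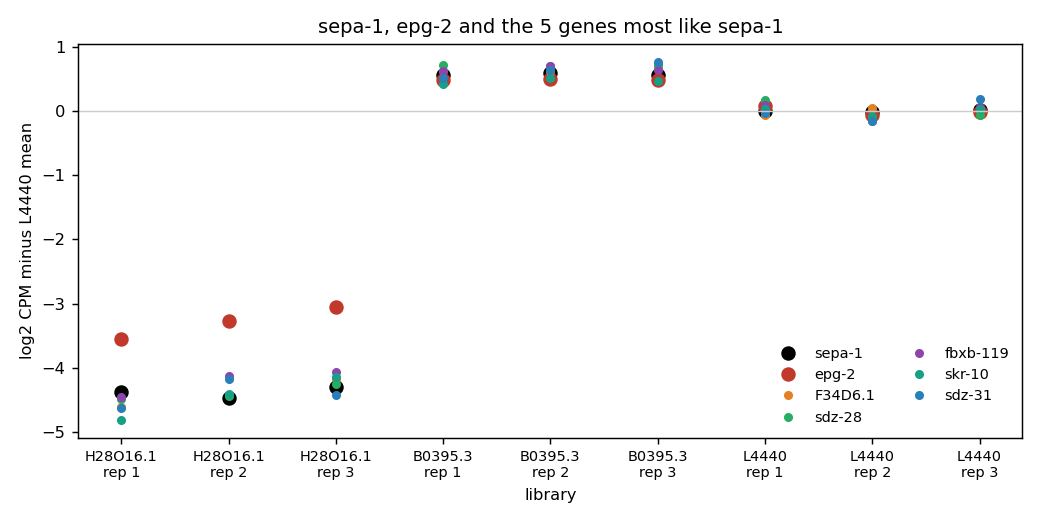
Log2 CPM of sepa-1 (black), epg-2 (red) and the 5 genes most like sepa-1 in each of the 9 libraries, less the mean of the gene in L4440. In H28O16.1 sepa-1 and those 5 genes lie together below -4, epg-2 lies above them near -3.28, and all of them lie above 0 in B0395.3. The 5 genes were chosen for likeness to sepa-1 over these same libraries.

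Over all genes 26.3% rose and 31.2% fell in H28O16.1, and 12.6% rose and 14.6% fell in B0395.3. The list counts that follow stand beside these shares. Of 30 other core autophagy genes, 7 rose and 16 fell in H28O16.1 (median -0.12), and 6 rose and 0 fell in B0395.3 (median 0.043). At an unadjusted p under 0.05, 9 were higher and 2 lower in B0395.3, while limma-voom and DESeq2 called 6 higher and 0 lower. Of 7 genes of induction and membrane supply, 6 fell and 0 rose in H28O16.1, where limma-voom and DESeq2 called 5 lower and 0 higher, and 0 were higher at an unadjusted p under 0.05. In B0395.3, 3 of the 7 rose. The lipid transfer protein gene atg-2 had 35.9 CPM in H28O16.1, 81.9 CPM in B0395.3 and 66.7 CPM in L4440 (log2 fold changes -0.89 and 0.30 against L4440). The scaffold gene epg-7 fell by 0.75 and the scramblase gene atg-9 by 0.40 in H28O16.1, and neither was called in B0395.3. The fall of epg-9, a partner in the kinase complex, was 0.13 in H28O16.1, a call that was lost under RLE scaling, in limma-voom and DESeq2, and without any one of the 6 libraries compared. In B0395.3 epg-9 rose by 0.32.

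Of the 3 listed partners of bec-1, the lipid kinase gene vps-34 fell by 0.33 and its regulatory subunit gene vps-15 by 0.19 in H28O16.1. In B0395.3 vps-34 rose by 0.22. The remaining partner, epg-8, was not called in either group (-0.045 and -0.0043). Of 9 genes that process or conjugate LGG proteins, 2 rose and 4 fell in H28O16.1. The falls included atg-16.1, of the conjugating complex, at -0.89, and the protease gene atg-4.2 at -0.58, and the rises were the other protease gene, atg-4.1 (0.28), and the conjugating enzyme gene atg-3 (0.25). In B0395.3, 2 of the 9 rose, one of them atg-4.1 (0.17), a call lost without B0395.3 replicate 3. After upper-quartile scaling 4 of the 9 were called higher there.

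Fusion genes went both ways in H28O16.1. Of 11, 5 rose and 4 fell in H28O16.1. The tethering subunit genes vps-33.1 (0.34) and vps-16 (0.29) and the SNARE gene snap-29 (0.25) rose, while vps-11, of the same tether, fell by 0.48. In B0395.3, 0 of the 11 were called by edgeR, limma-voom or DESeq2, while 2 were lower at an unadjusted p under 0.05 in edgeR. Without B0395.3 replicate 3, the SNARE gene vamp-7 was called higher there, at 0.20. Of 6 mitophagy genes, 1 rose and 2 fell in H28O16.1. The receptor gene dct-1, the BNIP3 relative, had 11.9 CPM in H28O16.1, 36.9 CPM in B0395.3 and 24.8 CPM in L4440 (log2 fold changes -1.06 and 0.58, both called). The kinase gene pink-1 fell by 0.19 and the Parkin relative pdr-1 rose by 0.19 in H28O16.1, and ikke-1 was not called (0.033). The pdr-1 gene shares 8.11% of its exon bases with mdt-29. In B0395.3, 1 gene rose (dct-1) and 1 fell, pink-1 (-0.096), a call lost without any one of the 6 libraries. Of 5 genes for PGL granules and their removal, 2 rose and 2 fell in H28O16.1, the rises being those of the arginine methyltransferase gene prmt-1 (0.14) and of lmtr-2 (0.18). The calls of lmtr-2 and pgl-1 were lost without H28O16.1 replicate 2.

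Of 15 upstream nutrient signalling genes, 3 rose and 9 fell in H28O16.1, with 2 to 4 rises and 7 to 9 falls under the alternatives. The falls of daf-15 (-0.095) and flcn-1 (-0.078), picked out for this after their values were seen, were lost under RLE scaling, in DESeq2 and without several single libraries. In B0395.3, 2 rose and 1 fell, where the rises numbered 0 without B0395.3 replicate 3 or L4440 replicate 1, and 1 without any of the other 4 libraries. The falls in H28O16.1 included the exportin gene xpo-1 (-0.67), the GATOR1 subunit gene nprl-2 (-0.61), let-363, which encodes TOR (-0.34), and the S6 kinase gene rsks-1 (-0.29). The nprl-2 gene shares 25.9% of its exon bases with F49E8.8 on the same strand, so its counts are uncertain. The gene mxl-3, chosen after its values were seen, encodes a factor that represses lipase genes activated by HLH-30. It had 12.6 CPM in H28O16.1, 4.11 CPM in B0395.3 and 7.05 CPM in L4440, with log2 fold changes of 0.84 and -0.78, both called and both opposite in sign to those of hlh-30, of which that in B0395.3 was called.

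Lysosomal genes fell more often than they rose in B0395.3. Of 21 V-ATPase subunit genes, which acidify lysosomes and other compartments, 18 fell and 0 rose in B0395.3 (median -0.14), also with 0 higher at an unadjusted p under 0.05, by limma-voom and by DESeq2, with vha-6, an intestinal subunit, at -0.66 and vha-8 at -0.21. The falls of vha-2, vha-4 and vha-9 were lost under upper-quartile scaling, and these and that of vha-20 without several single libraries. The vha-2 gene shares 22.7% of its exon bases with R10E11.6 on the same strand, so its counts are uncertain. In H28O16.1, 6 rose and 7 fell, among the falls vha-12 (-0.47) and unc-32 (-0.39). The count of rises there was 2 without H28O16.1 replicate 2 and 3 without H28O16.1 replicate 1, L4440 replicate 1 or L4440 replicate 3. Intestinal markers stood beside this, with a summed level of 36000 to 39340 CPM in H28O16.1, 22610 to 23920 CPM in B0395.3 and 32360 to 34160 CPM in L4440. Nearly all of that sum was the yolk protein genes vit-2 and vit-6, at 8440 and 14230 CPM in B0395.3 and 11870 and 20440 CPM in L4440. It therefore says little of the other intestinal markers. Of 9 intestinal markers, 6 rose and 2 fell in H28O16.1 and 2 rose and 5 fell in B0395.3, and 0 were at 0 counts. Of the rises in B0395.3, 1 was left without any one of B0395.3 replicates 1 and 2 and L4440 replicates 1 and 3. Their part in the V-ATPase values was not tested.

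The lysosomal lipase gene lipl-5 had 203 CPM in H28O16.1, 235.0 CPM in B0395.3 and 468 CPM in L4440 (log2 fold changes -1.21 and -0.99). With lipl-2 (-0.97 and -0.63) and lipl-4 (-0.59 and -0.86) it fell in both RNAi groups, although the H28O16.1 fall of lipl-4 was lost in DESeq2 and without H28O16.1 replicate 1 or L4440 replicate 2. The lipase gene lipl-7 rose by 0.30 in H28O16.1. Of 6 lipase genes tested, 3 fell in each RNAi group. Of 9 genes of lysosomal membrane proteins and cathepsins, 5 rose and 4 fell in H28O16.1, and 1 rose and 5 fell in B0395.3. The LAMP relative lmp-1 had 120.3 CPM in H28O16.1, 234.8 CPM in B0395.3 and 219 CPM in L4440 (-0.87 and 0.098, of which the rise was lost when any 1 of 5 libraries was left out). The cathepsin genes asp-4 (-0.38 and -0.70) and cpr-6 (-0.23 and -0.55) and the membrane protein gene scav-3 (-0.64 and -0.18) fell in both groups. The other cathepsin genes, cpl-1 (0.22 and -0.43) and cpz-1 (0.35 and -0.46), rose in H28O16.1 and fell in B0395.3, and the membrane protein genes lmp-2 (0.55), ctns-1 (0.33) and cup-5 (0.070) rose in H28O16.1 and were not called in B0395.3. These 5 were named after their values were seen, and the rise of cup-5 was lost under upper-quartile scaling and without H28O16.1 replicate 2 or L4440 replicate 2.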

How the data were processed

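The authors deposited a table of whole-number counts per gene with no normalization, 1 column per library. STAR 2.4.1d and featureCounts 1.4.6-p4, beside bcl2fastq 1.8.4, are listed with the build WBcel235 in the submitters' processing notes. Counting settings were not stated, so how reads shared by similar or overlapping genes were handled is unknown. Per the labels' protocols, libraries were made with a TruSeq RNA v2 kit, which does not mark strand. A deposited RPKM table of the same libraries was not used. Names, coordinates and exon lengths came from the Ensembl annotation of WBcel235, which held 46449 of 46748 identifiers.

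Counts were filtered (filterByExpr, minimum count 10, 14622 genes kept), scaled by TMM and fitted over all 9 libraries with edgeR 4.0.16 in R 4.3.3. Two-sided quasi-likelihood F-tests were adjusted by Benjamini-Hochberg over all genes kept. The intervals are 95% intervals of that fit, and the biological coefficient of variation was 4.64%. The fit was also run on simulated counts with far fewer changed genes than were called here. That run could not test the scaling under such widespread change. Replicates were numbered by the order of their records and pair nothing. The genes and lists were chosen with earlier results of these data known. Named genes were the 10 members, both RNAi targets, up to 4 genes of each pathway list with the smallest p, and 5 genes most like sepa-1 and sqst-1. Alternatives used RLE or upper-quartile scaling, DESeq2 1.42.0, limma-voom 3.58.1, other filters, pairs of groups, and each library left out.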

Additional observations from a re-analysis of the deposited data

How the results depend on the processing

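The totals of called genes, over all genes and over the 10 members, stayed within 1.5 times their value under each alternative run, but member counts by direction moved further. The 2 rises in H28O16.1 against L4440 became 1 under upper-quartile scaling, in the fit of 2 groups, and without H28O16.1 replicate 3 or any one L4440 library. The 1 fall in B0395.3 became 0 with RLE or upper-quartile scaling, without a filter, in DESeq2 and with any one library left out. Of the fold changes of members, 202 of 210 kept their direction and their side of the threshold when scaling, filter, test or fit was changed, and 166 of 180 did when a library was left out. sepa-1 and epg-2 kept both throughout, between -4.44 and -4.36 for sepa-1 and between -3.42 and -3.15 for epg-2 in H28O16.1 against L4440. The changes concerned sqst-1, epg-3, hlh-30 and bec-1, and 1 reversal: epg-5 in B0395.3 against L4440, at 0.0044, lay between -0.015 and 0.016 with a library left out. Among the 30 other autophagy genes, 6 to 8 rose and 14 to 16 fell in H28O16.1 under the alternatives run on the lists. The cause of these changes was not tested. In H28O16.1 against B0395.3, leaving out H28O16.1 replicate 3 gave 9 called members in place of 7, with bec-1 higher at 0.10. Differences of about 0.1 log2 units are near the limit of 3 libraries a group.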

Other observations

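The tested genes next to sepa-1 and epg-2 on the chromosome, looked up after their values were seen, were mostly without such a fall. Around sepa-1, M01E5.4 rose by 0.40 log2 units in H28O16.1, the topoisomerase gene top-1 fell by 0.39 and T04D3.1 was not called (0.061), while sdz-30, the second tested gene on the other side, stood at -4.58. In B0395.3 sdz-30 was not called (-0.28), unlike sepa-1. Around epg-2, Y39G10AR.11 stood at -0.39 in H28O16.1 and 0.48 in B0395.3, both called, and icp-1 was not called in either (-0.020 and 0.074).

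Sperm markers were low in all groups, with a summed level of 1.61 to 3.63 CPM in H28O16.1, 3.03 to 4.42 CPM in B0395.3 and 6.25 to 6.71 CPM in L4440. Of 10 sperm markers tested, 8 fell and 0 rose in H28O16.1 (median -1.92). In B0395.3, 5 fell and 0 rose (median -1.13). Several of these calls were lost in DESeq2 or with a library left out. Body wall muscle markers had 595 to 950 CPM in H28O16.1, 348 to 402 CPM in B0395.3 and 582 to 702 CPM in L4440, so the spread within H28O16.1 was wider than in the other groups. Epidermis markers had 40.6 to 42.8 CPM in H28O16.1, 24.6 to 32.01 CPM in B0395.3 and 48.8 to 75.4 CPM in L4440. Most of this was col-19, at 40.4, 24.5 and 60.6 CPM. Of 6 epidermis markers, 5 fell and 0 rose in H28O16.1 (median -1.71), where the fall of grd-10 was lost in DESeq2 and that of bli-1 in limma-voom. In B0395.3, 1 fell and 0 rose (median 0.012). Pharynx markers had 40.1 to 55.7 CPM in H28O16.1, 66.5 to 73.6 CPM in B0395.3 and 50.9 to 55.1 CPM in L4440, and neuron markers had 285 to 310.5 CPM in H28O16.1, 297 to 321 CPM in B0395.3 and 289 to 296 CPM in L4440. Most of the neuron sum was snb-1, at 180 CPM in H28O16.1, 189 CPM in B0395.3 and 185 CPM in L4440.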
